A study of Homo sapiens with 6 samples.

Results

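Complement is a cascade of plasma and tissue proteins that tags targets for uptake, recruits leukocytes and perforates membranes. Its classical, lectin and alternative routes all lead to cleavage of C3, and soluble and membrane-bound regulators restrain that step. The liver makes most plasma complement, but macrophages also transcribe many of its genes, and several of these are known targets of interferon signalling. Ruxolitinib blocks JAK1 and JAK2, the kinases that switch on STAT proteins after interferon and many cytokines bind.

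The genes described here are 10 complement components, regulators and receptors: C1QA, C1R, C1S, C2, C3, CFB, CFP, SERPING1, C3AR1 and CD55. They were found by symbol, each in 1 row, among the 61517 genes of the deposited count table. Messenger RNA was sequenced in 6 libraries of THP-1, a human monocytic leukaemia line that stands in for macrophages after differentiation. The ruxolitinib group had 3 libraries of differentiated cells given LPS, ATP and the drug, and the control group had 3 libraries of differentiated cells given LPS and ATP but no drug. The treatment label reads "Lukotinib", while the series title and the sample names point to ruxolitinib. Each ruxolitinib library shares a batch number with a control library. Both groups were stimulated, so none of the values below is a resting level. The sources used here state neither the dose nor the times nor how the cells were differentiated, and they do not say whether the libraries of a group were separate cultures. P-values therefore measure the spread between these libraries, which may be technical.

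Ruxolitinib libraries held 18796476 to 19253534 counts and control libraries 17757595 to 24533979. Levels are given as CPM, counts scaled to the library total after TMM normalisation. A count of 0 allows up to 3 counts, which equal 0.156 to 0.160 CPM in ruxolitinib libraries and 0.122 to 0.169 CPM in control libraries, for counting error only. Of 8 macrophage and monocyte markers, 7 were high enough to test. Of these, 6 fell and 1, the lysozyme gene LYZ, rose, and all 8 summed to 601 to 654 CPM with ruxolitinib and 1177 to 1206 CPM in control. T cell markers were at or near 0 (CD3D, CD3E and CD3G had no count), the epithelial markers summed to at most 0.0536 and 0.0796 CPM in the ruxolitinib and control groups, the hepatocyte markers to at most 0.912 and 1.47 CPM (of these ALB, the albumin gene, was tested and fell, at 0.462 and 0.931 CPM), the B cell markers to at most 0.524 and 0.506 CPM, and the fibroblast markers to at most 2.19 and 3.62 CPM. The endothelial list summed to 560 to 593 CPM with ruxolitinib and 820 to 889 CPM in control, nearly all of it PECAM1, which monocytes also express. The fall of the macrophage markers runs beside the falls below, and its part in them was not tested. ITGAM is in both sets, as a marker that fell and as a complement receptor gene below. In bulk libraries such as these, fewer cells with a transcript and less transcript per cell cannot be told apart.

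With ruxolitinib, C1S, C2, C3, C3AR1 and SERPING1 fell, CD55 rose, and C1QA, C1R, CFB and CFP did not pass the test. Of the 10 genes, 5 fell and 1 rose at an adjusted p under 0.05 (edgeR's quasi-likelihood test, Benjamini-Hochberg adjustment over 14051 genes), where 29.7% of all genes tested passed, 16.1% as lower and 13.6% as higher. The median log2 fold change, ruxolitinib over control, was -0.52 for the 10 genes and -0.01 for all genes tested. The 3 libraries of each group did not overlap for 7 of the 10 genes, SERPING1 among them, against 44.3% of all genes tested. All 10 passed the filter on low counts, SERPING1 through its control libraries alone, since 0 of its 3 ruxolitinib libraries reached the filter level of 0.522 CPM. Such a gene had to be lower with ruxolitinib to be tested, which bears on its call, on the median and on the count without overlap. Of the other 9 genes 4 fell and 1 rose, and their median log2 fold change was that of C1R, -0.26.

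**Figure D1:**
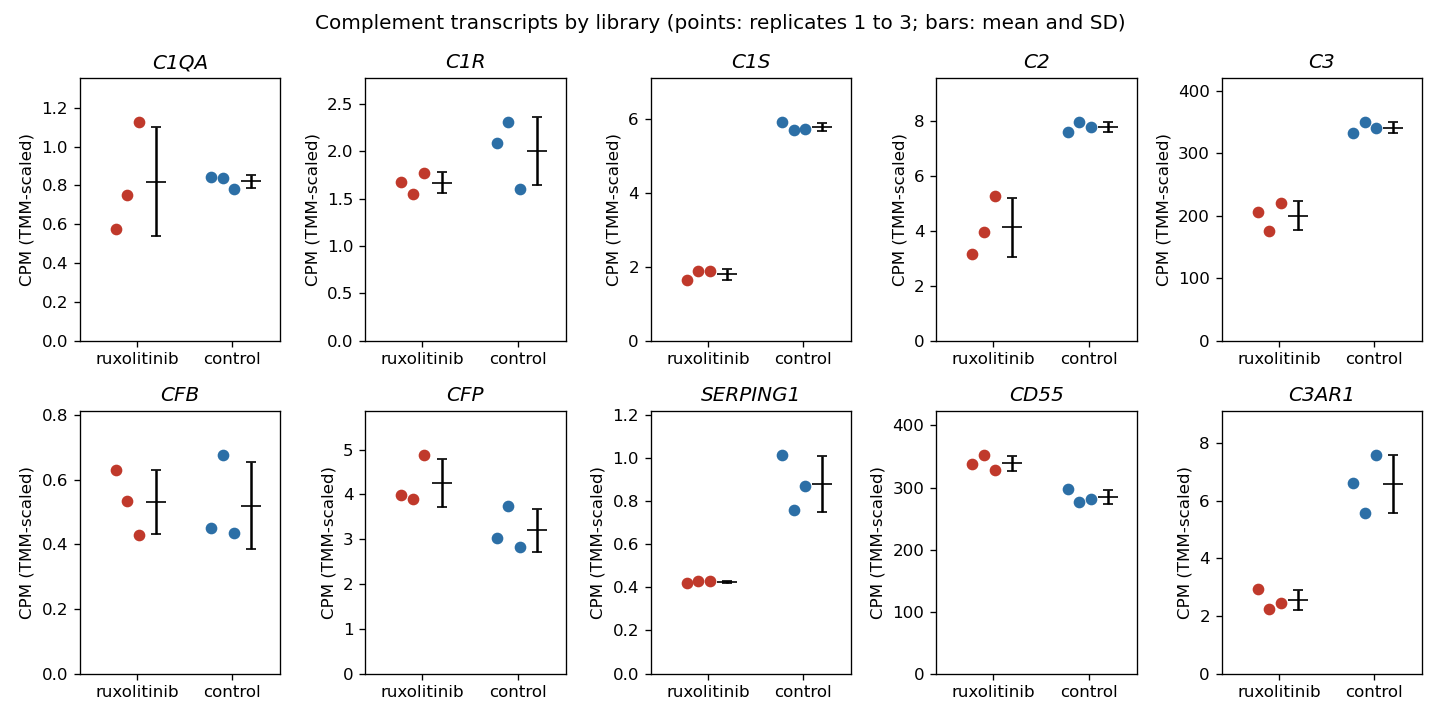
Level of each of the 10 complement genes in CPM (linear axes from 0, each with its own scale) in the 3 ruxolitinib and 3 control libraries, with the mean and SD of each group beside the points. C1S, C2, C3, SERPING1 and C3AR1 are lower in every ruxolitinib library than in any control library, CFP and CD55 are higher, and the groups overlap for C1QA, C1R and CFB.

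Promoter windows of 300 bases, 250 before and 50 after a transcription start, were held by RefSeq (GRCh38.p14) for 7 of the 10 genes, in 11 windows. C1S, C3 and SERPING1 had none in the table. The windows were searched on both strands for TTCNNNGAA, the spacing of a STAT-bound GAS element, and for GAAA, NN and GAAA in a row (N is any base), the core of an interferon-stimulated response element (ISRE). The 2 motifs do not overlap in any window shown. The GAS-type letters were found in 4 of the 11 windows (36.4%), which belong to C1QA, C1R and CFB, against 7.66% of 35116 RefSeq windows. The 2 C1QA windows overlap and share 1 match. The ISRE-type letters were found in 1 window (9.09%), that of CFB, against 3.57% of all windows. Of 43 windows of the other complement genes listed below, 10 (23.3%) held GAS-type letters and 0 held ISRE-type letters. In C1R 1 of 2 windows held the GAS-type match. No match lay in the windows of C2, C3AR1, CFP or CD55. The 2 C2 windows lie at starts far upstream of most of the gene's annotated transcripts. The windows below are those of CFB and C1R, which hold matches and did not pass the test, and of C3AR1, which fell, and CD55, which rose. They are written 5′ to 3′ on the strand of the gene, with matches in capitals.

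CFB, chr6:31945845-31946144, plus strand: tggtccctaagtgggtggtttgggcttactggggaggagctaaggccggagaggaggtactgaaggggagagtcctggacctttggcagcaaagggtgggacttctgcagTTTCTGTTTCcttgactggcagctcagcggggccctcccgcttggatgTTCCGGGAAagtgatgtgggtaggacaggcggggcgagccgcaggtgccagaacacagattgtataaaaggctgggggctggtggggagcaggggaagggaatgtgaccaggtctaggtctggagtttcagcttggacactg
C1R, chr12:7091844-7092143, minus strand: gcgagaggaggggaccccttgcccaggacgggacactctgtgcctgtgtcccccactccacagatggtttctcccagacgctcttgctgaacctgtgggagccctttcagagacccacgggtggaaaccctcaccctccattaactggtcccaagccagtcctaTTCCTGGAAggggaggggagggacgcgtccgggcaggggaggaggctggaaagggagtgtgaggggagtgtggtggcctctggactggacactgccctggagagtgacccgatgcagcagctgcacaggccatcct
C3AR1, chr12:8066310-8066609, minus strand: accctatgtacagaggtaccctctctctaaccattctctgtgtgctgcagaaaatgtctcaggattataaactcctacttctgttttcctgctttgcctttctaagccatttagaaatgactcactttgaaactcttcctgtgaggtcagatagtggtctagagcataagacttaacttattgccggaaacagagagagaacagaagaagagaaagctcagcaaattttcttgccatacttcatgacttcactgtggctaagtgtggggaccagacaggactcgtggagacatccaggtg
CD55, chr1:207321428-207321727, plus strand: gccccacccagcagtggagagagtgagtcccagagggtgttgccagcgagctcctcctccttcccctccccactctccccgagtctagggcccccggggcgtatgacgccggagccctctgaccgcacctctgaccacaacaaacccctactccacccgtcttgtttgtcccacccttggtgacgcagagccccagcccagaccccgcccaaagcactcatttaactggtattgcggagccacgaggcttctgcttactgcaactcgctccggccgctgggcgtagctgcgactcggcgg

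In the CFB window the ISRE-type match, TTTCTGTTTC on the gene's strand, begins 140 bases before the start site and the GAS-type match, TTCCGGGAA, begins 92 bases before it. In the C1R window the match TTCCTGGAA begins 86 bases before the start site. A match describes the letters only, and its presence or absence says nothing here about binding of a factor.

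C1q, C1r and C1s form the complex that starts the classical pathway. C1q binds antibody on a target, C1r cleaves C1s, and C1s cleaves C4 and C2. C1S, the gene of the second protease, changed most of the 10. It had 1.63, 1.87 and 1.88 CPM in ruxolitinib replicates 1 to 3, against 5.91, 5.69 and 5.73 CPM in control replicates 1 to 3. The groups lie far apart, and the spread within each is small. The log2 fold change was -1.68 ± 0.16 (SE, n = 3 per group, edgeR adjusted p = 8.01e-06), or 3.21-fold lower, and it was number 155 when the 14051 genes tested were ordered from the largest fall. Within batches 1, 2 and 3 the log2 ratio was -1.86, -1.60 and -1.61.

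C1R, the gene of the protease that acts on C1s, had 1.68, 1.55 and 1.77 CPM with ruxolitinib and 2.08, 2.31 and 1.61 CPM in control. The lowest control library lies among the ruxolitinib libraries. C1R had a log2 fold change of -0.26 ± 0.23 (edgeR adjusted p = 0.427), with a 95% interval of -0.76 to 0.23. C1S and C1R lie close together on chromosome 12 (GRCh38, GENCODE 29), C1S on the plus strand at 6988259 to 7071032 and C1R on the minus strand at 7080199 to 7092607, so the genes point towards each other. The ratio of C1S to C1R counts was 0.969, 1.21 and 1.06 in the ruxolitinib libraries and 2.84, 2.47 and 3.57 in the control libraries. These ratios do not overlap between groups (p = 0.1 by a two-sided exact permutation test, no smaller p being possible with 3 against 3, and 0.133 adjusted over the 4 pairs of genes compared, which were chosen after the values were seen).

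C1RL, a protease gene related to C1R whose span overlaps it on the same strand by 3021 bases, fell. It had 3.93, 4.07 and 4.34 CPM with ruxolitinib and 7.20, 6.96 and 9.07 CPM in control, a log2 fold change of -0.91 ± 0.14 (edgeR adjusted p = 5.07e-04). The C1S span overlaps LPCAT3 on the other strand and EMG1 on its own, and neither passed the test. LPCAT3 had a log2 fold change of -0.07 ± 0.09 (edgeR adjusted p = 0.612) and EMG1 had 0.09 ± 0.07 (edgeR adjusted p = 0.349).

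C1QA encodes the A chain of C1q (chromosome 1, 22636506 to 22639608, plus strand). It had 0.577, 0.750 and 1.13 CPM with ruxolitinib and 0.844, 0.835 and 0.781 CPM in control. The control libraries lie inside the range of the ruxolitinib libraries, which spread widely. C1QA had a log2 fold change of -0.01 ± 0.33 (edgeR adjusted p = 0.993), and its 95% interval, -0.72 to 0.71, leaves room for a change of more than 1.5-fold in either direction. The other chains of the protein were nearly absent: C1QB had 0 counts with ruxolitinib and 1 in control, summed over 3 libraries, and C1QC had 2 with ruxolitinib and 3 in control, while C1QA had 46 with ruxolitinib and 54 in control.

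C2, cleaved by C1s and by the lectin pathway proteases, supplies the catalytic part of the classical C3 convertase. It fell, with 3.15, 3.96 and 5.26 CPM in the ruxolitinib libraries against 7.59, 7.96 and 7.77 CPM in the control libraries. All ruxolitinib libraries lie below all control libraries, and they differ more among themselves (coefficient of variation 25.8%, against 2.33% in control). C2 had a log2 fold change of -0.92 ± 0.17 (edgeR adjusted p = 0.00143), or 1.89-fold lower, with -1.27, -1.01 and -0.56 within batches 1 to 3.

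CFB encodes factor B, the alternative pathway's counterpart of C2. The genes overlap by 23 bases on the plus strand of chromosome 6, C2 at 31897785 to 31945672 and CFB at 31945650 to 31952084. CFB had the lowest mean of the 10 per exon length. It had 12, 10 and 8 counts with ruxolitinib (0.629, 0.535 and 0.429 CPM) and 8, 17 and 10 counts in control (0.450, 0.676 and 0.434 CPM). The groups overlap, and the log2 fold change was 0.01 ± 0.38 (edgeR adjusted p = 0.985, 95% interval -0.81 to 0.83), so the lower end of its interval lies close to the fall of C2. Whether the changes of C2 and CFB differ was compared through their ratio. The ratio of C2 to CFB counts was 5.0, 7.4 and 12.2 with ruxolitinib and 16.9, 11.8 and 17.9 in control, and the groups overlap (exact two-sided permutation p = 0.2, also 0.2 adjusted over the 4 pairs). A readthrough gene that spans both (ENSG00000244255) had 6, 0 and 0 counts with ruxolitinib and none in control, and the antisense gene C2-AS1 had 0, 1 and 2 counts with ruxolitinib and none in control. Reads that several of these genes share could have been assigned in more than one way, and the rule used is not given in the sources used here.

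C3 is the central component, whose cleavage yields the opsonin C3b and the anaphylatoxin C3a. Its transcript fell and was, with CD55, far more abundant than the other 8. C3 (chromosome 19, 6677704 to 6730562, minus strand) had 205, 175 and 221 CPM in ruxolitinib replicates 1 to 3, against 333, 350 and 341 CPM in control replicates 1 to 3. The highest ruxolitinib library stayed well below the lowest control library. C3 had a log2 fold change of -0.77 ± 0.08 (edgeR adjusted p = 5.46e-05), or 1.70-fold lower, with -0.697, -1.002 and -0.628 within batches 1 to 3. GPR108, which overlaps C3 on the same strand by 649 bases, rose slightly (log2 fold change 0.15 ± 0.05, edgeR adjusted p = 0.0465), and a noncoding gene inside C3 (ENSG00000276980, sense intronic) had 4, 1 and 7 counts with ruxolitinib and 13, 18 and 16 in control and was tested through its control libraries alone, 0 of its 3 ruxolitinib libraries reaching the filter level.

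CFP encodes properdin, which stabilises the alternative pathway convertase (chromosome X, 47623172 to 47630305, minus strand). It had 3.99, 3.91 and 4.88 CPM with ruxolitinib and 3.04, 3.74 and 2.82 CPM in control. Every ruxolitinib library was above every control library, by a narrow margin. The log2 fold change of 0.41 ± 0.17 did not pass after adjustment (unadjusted p = 0.0383, edgeR adjusted p = 0.102), but it did when control replicate 2 was left out (0.54, edgeR adjusted p = 0.0430) or the pair of libraries of batch 2 (0.60, edgeR adjusted p = 0.0207). It was smaller when ruxolitinib replicate 3 was left out (0.30, edgeR adjusted p = 0.295) or the batch 3 pair (0.21, edgeR adjusted p = 0.542). Factor D, the protease that cleaves factor B, is encoded by CFD, which had 2.23 ± 0.222 CPM with ruxolitinib and 1.78 ± 0.436 CPM in control (SD, n = 3 each, log2 fold change 0.32 ± 0.23, edgeR adjusted p = 0.339).

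SERPING1 encodes C1 inhibitor, which inactivates C1r and C1s (chromosome 11, 57597387 to 57614853, plus strand). It had 8 counts in each ruxolitinib library (0.420, 0.428 and 0.429 CPM), against 18, 19 and 20 counts in control replicates 1 to 3 (1.01, 0.756 and 0.868 CPM). The groups do not overlap, but every value rests on 20 counts or fewer. The log2 fold change was -1.02 ± 0.33 (edgeR adjusted p = 0.0366). The call was lost with the batch number as a block (edgeR adjusted p = 0.0830), by DESeq2 (adjusted p = 0.208), with no filter on low counts (0.0928), without any single library other than control replicate 2 (0.0848 to 0.132) and without both libraries of any batch (0.0633 to 0.237), with log2 fold changes of -0.91 to -1.13 throughout.

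CD55, or decay-accelerating factor, is a membrane protein that takes apart C3 convertases on the cell's own surface. It alone of the 10 rose by the test. CD55 (chromosome 1, 207321376 to 207386804, plus strand) had 337, 352 and 328 CPM with ruxolitinib, against 298, 276 and 281 CPM in control. The groups do not overlap, and the difference is small beside those of the genes that fell. CD55 had a log2 fold change of 0.25 ± 0.05 (edgeR adjusted p = 0.00179), or 1.19-fold higher, with 0.18, 0.35 and 0.22 within batches 1 to 3.

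The other membrane regulators did not pass. CD46, a cofactor for the breakdown of C3b, had 128, 135 and 124 CPM with ruxolitinib and 137, 132 and 132 CPM in control (log2 fold change -0.05 ± 0.05, edgeR adjusted p = 0.462, 95% interval -0.16 to 0.05). CD59, which blocks the membrane attack complex, had 492, 490 and 491 CPM with ruxolitinib and 486, 456 and 471 CPM in control (0.06 ± 0.04, edgeR adjusted p = 0.317, 95% interval -0.03 to 0.15), groups that do not overlap but nearly touch. These intervals are narrow and exclude changes of the size seen in C3. CR1, the receptor for C3b, was too low to test, with 1 count with ruxolitinib and 7 in control.

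The ratio of C3 to CD55 counts, of a component to a regulator of its convertase, was 0.608, 0.496 and 0.672 in the ruxolitinib libraries and 1.12, 1.27 and 1.21 in the control libraries. C3 thus had fewer counts than CD55 in every ruxolitinib library and more in every control library. The exact two-sided permutation p was 0.1, the smallest possible with 3 against 3 libraries, and 0.133 adjusted over the 4 pairs. Counts are not scaled to gene length. Per kilobase of exon, mean CD55 lay above mean C3 with ruxolitinib (57.4 and 24.0 CPM per kb) and in control (48.3 and 41.0). Both genes together held 96.8% to 97.3% of the counts of the 10 genes with ruxolitinib and 95.8% in each control library. All 10 genes took 0.0532% to 0.0563% of a library's counts with ruxolitinib and 0.0657% to 0.0670% in control.

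**Figure D2:**
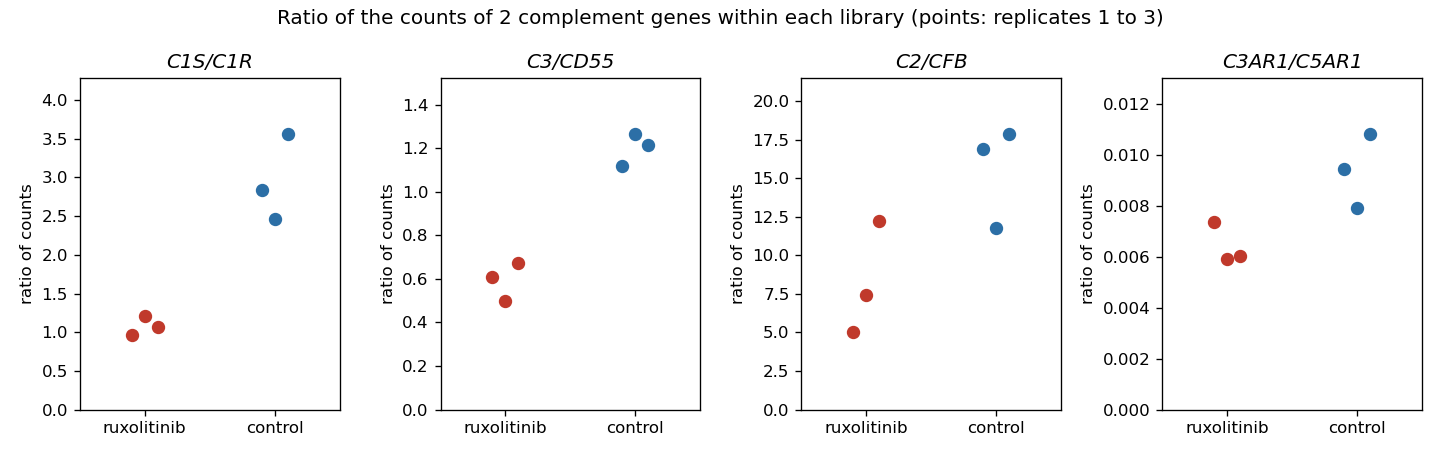
Ratio of the counts of 2 complement genes within each library (linear axes from 0), 1 point per library, ruxolitinib left and control right. The ratios C1S/C1R, C3/CD55 and C3AR1/C5AR1 are lower in every ruxolitinib library than in any control library, and those of C2/CFB overlap.

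C3AR1 encodes the receptor for C3a, which drives inflammatory responses in myeloid cells. It fell, with 2.94, 2.25 and 2.47 CPM in the ruxolitinib libraries against 6.64, 5.57 and 7.59 CPM in the control libraries. Every control library lies well above every ruxolitinib library. C3AR1 (chromosome 12, 8058302 to 8066471, minus strand) had a log2 fold change of -1.37 ± 0.17 (edgeR adjusted p = 9.15e-05), or 2.58-fold lower, with -1.18, -1.31 and -1.62 within batches 1 to 3.

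C5AR1, the receptor for the anaphylatoxin C5a, also fell and had the smallest adjusted p of the complement genes examined. It had 399, 379 and 410 CPM with ruxolitinib and 701, 702 and 700.4 CPM in control, a log2 fold change of -0.82 ± 0.04 (edgeR adjusted p = 5.62e-08). C5AR2, the alternative C5a receptor, had 23.1, 24.4 and 25.6 CPM with ruxolitinib and 29.9, 28.96 and 23.9 CPM in control (-0.18 ± 0.09, edgeR adjusted p = 0.159). Its log2 fold change was -0.26 (edgeR adjusted p = 0.0434) when control replicate 3 was left out and -0.31 (0.0327) without the batch 3 pair, but -0.11 (0.459) when control replicate 1 was left out and -0.085 (0.698) without the batch 1 pair. The ratio of C3AR1 to C5AR1 counts was 0.00735, 0.00593 and 0.00602 with ruxolitinib and 0.00947, 0.00793 and 0.0108 in control. The exact two-sided permutation p was 0.1, the smallest possible with 3 against 3 libraries, and 0.133 adjusted over the 4 pairs.

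Among the integrin genes of the receptors for the C3b fragment iC3b, ITGAM, the alpha chain of CR3, had 16.6, 13.9 and 18.3 CPM with ruxolitinib and 20.3, 22.6 and 22.5 CPM in control. It fell by 0.42 ± 0.10 on the log2 scale (edgeR adjusted p = 0.00744). ITGAX, the alpha chain of CR4, had 172, 141 and 199 CPM with ruxolitinib and 252, 340 and 265 CPM in control (-0.75 ± 0.18, edgeR adjusted p = 0.0343). The ITGAX call was lost with the batch number as a block (edgeR adjusted p = 0.0938), with no filter on low counts (0.104), without ruxolitinib replicate 1 (0.0922) or 2 (0.0914), without control replicate 2 (0.0501) or 3 (0.0644), and without both libraries of batch 1 (0.0866) or 3 (0.0689). In these settings the ITGAX fold change stayed between -0.61 and -0.92 on the log2 scale. It was smallest, at -0.48 (edgeR adjusted p = 2.87e-06), without the batch 2 pair, where the call held. ITGB2, the beta chain that both share, had 2415 ± 223 CPM with ruxolitinib and 2392 ± 139 CPM in control (SD, n = 3 each, log2 fold change 0.01 ± 0.07, edgeR adjusted p = 0.908, though 0.0237 as higher without both libraries of batch 2).

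**Figure D3:**
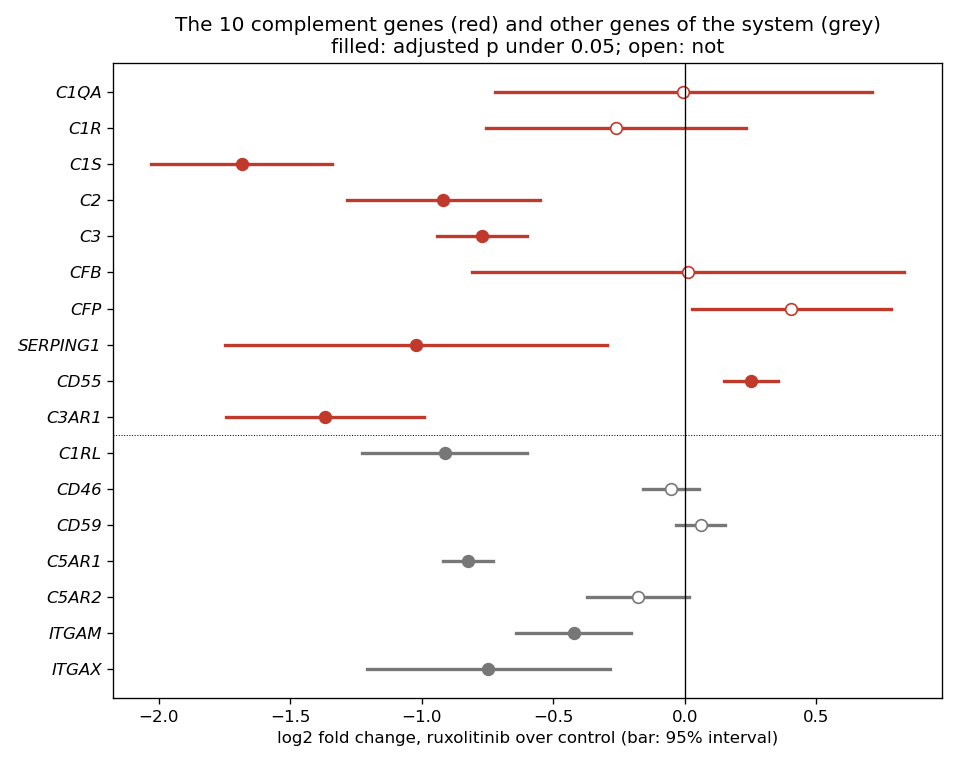
Log2 fold change, ruxolitinib over control, with its 95% interval for the 10 complement genes (red) and for 7 others of the system (grey). Filled points passed at an adjusted p under 0.05 and open points did not. The falls run from -0.42 for ITGAM to -1.68 for C1S, and CD55, at 0.25, is the only filled point above 0.

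In all, 47 other complement genes were listed by role, all were found in the table, and 18 were high enough to test. Of these, C1RL, C5AR1, ITGAM and ITGAX fell (4 of 18, against 16.1% of all genes tested) and 0 rose by edgeR and 0 by DESeq2. At an unadjusted p under 0.05, 5 were lower and 1, the pentraxin gene PTX3, was higher (log2 fold change 0.45 ± 0.20, unadjusted p = 0.0420, edgeR adjusted p = 0.110). The lower gene that did not pass after adjustment was CD93, a myeloid surface receptor, with 2.46, 2.52 and 3.54 CPM in the ruxolitinib libraries and 4.44, 3.86 and 3.91 CPM in the control libraries (log2 fold change -0.51 ± 0.18, edgeR adjusted p = 0.0533). CD93 passed with library totals alone (edgeR adjusted p = 0.0440), when ruxolitinib replicate 3 was left out (0.0186) and without the batch 3 pair (0.0436). The median log2 fold change of the 18 tested genes was -0.24. None of the 9 lectin pathway genes was high enough to test, each having at most 7 counts summed over the ruxolitinib libraries and at most 10 over the control libraries. Of the 7 terminal pathway genes only C5 and C9 were tested. C5 had 0.747 ± 0.284 CPM with ruxolitinib and 1.05 ± 0.218 CPM in control (SD, n = 3 each, log2 fold change -0.50 ± 0.35, edgeR adjusted p = 0.312). C9 had 2.15 ± 0.277 CPM with ruxolitinib and 2.83 ± 0.546 CPM in control (SD, n = 3 each, -0.41 ± 0.21, edgeR adjusted p = 0.164).

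C4 is the partner of C2 in the classical convertase, and its near-identical genes C4A and C4B share reads, so their counts are uncertain. C4A had 1.42 ± 0.352 CPM with ruxolitinib and 1.26 ± 0.382 CPM in control (SD, n = 3 each, log2 fold change 0.16 ± 0.30, edgeR adjusted p = 0.730). C4B had 0.622 ± 0.169 CPM with ruxolitinib and 0.848 ± 0.538 CPM in control (SD, n = 3 each, -0.50 ± 0.48, edgeR adjusted p = 0.472). By role, 3 of 7 tested classical pathway genes fell (C1S, C2 and C1RL), 1 of 4 central and alternative pathway genes (C3), 1 of 3 soluble regulators (SERPING1), 0 of 3 membrane regulators and 4 of 9 receptors (C3AR1, C5AR1, ITGAM and ITGAX), against 16.1% of all genes tested. Of the 3 membrane regulators 1 rose (CD55), against 13.6% of all genes tested, and no gene of another role rose. The SERPING1 and ITGAX calls in these counts were lost with the batch number as a block. SERPING1 also passed the filter through its control libraries alone, so it had to be lower with ruxolitinib to be tested.

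Levels were compared between genes per kilobase of exon (union of GENCODE 29 exons). With ruxolitinib the order was CD55 (57.4 ± 2.04 CPM per kb, SD, n = 3), C3 (24.0 ± 2.80), C3AR1 (1.19 ± 0.164), CFP (0.758 ± 0.0962), C2 (0.744 ± 0.192), C1QA (0.643 ± 0.221), C1R (0.283 ± 0.0185), C1S (0.277 ± 0.0223), SERPING1 (0.118 ± 0.00146) and CFB (0.106 ± 0.0201). Among these neighbours, CFP, C2 and C1QA overlapped between libraries, as did C1R and C1S, and SERPING1 and CFB. In control the order was CD55 (48.3 ± 1.93 CPM per kb, SD, n = 3), C3 (41.0 ± 1.05), C3AR1 (3.08 ± 0.472), C2 (1.40 ± 0.0327), C1S (0.894 ± 0.0180), C1QA (0.645 ± 0.0268), CFP (0.570 ± 0.0855), C1R (0.340 ± 0.0609), SERPING1 (0.244 ± 0.0357) and CFB (0.104 ± 0.0271). Here only C1QA and CFP, and C1R and SERPING1, overlapped. C1S thus stood in the eighth place with ruxolitinib and in the fifth in control, while CD55, C3 and C3AR1 led and SERPING1 and CFB closed the order in both groups. These places rest on the union of exons. With the longest transcript as gene length, 5 of 10 were kept with ruxolitinib and 8 of 10 in control. The places of C1S and C3AR1 with ruxolitinib were among those that moved.

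**Figure D4:**
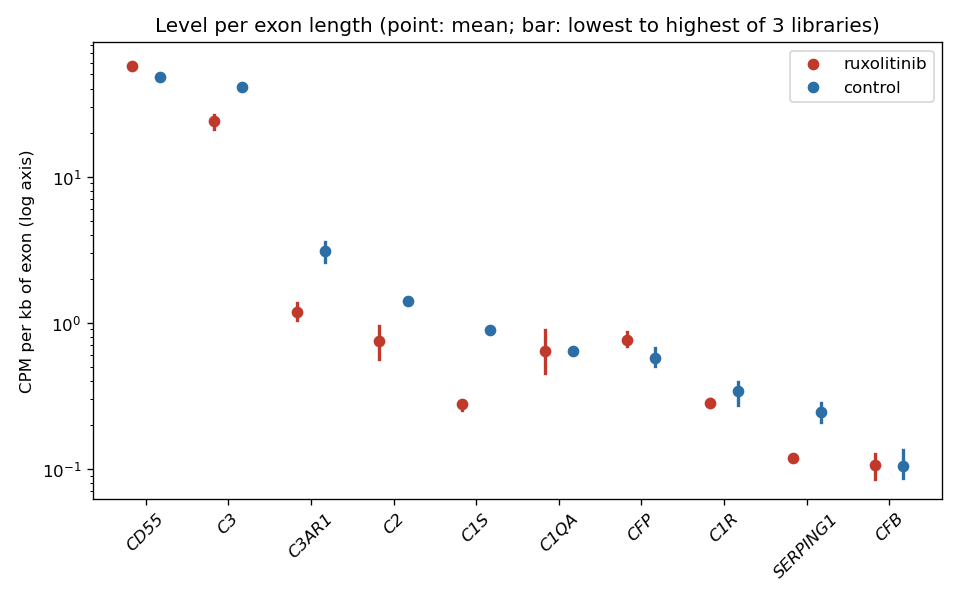
Level of each of the 10 genes in CPM per kilobase of exon (log axis), in the order of the control group, with the mean as a point and the lowest to highest of 3 libraries as a bar, ruxolitinib left of control for each gene. CD55 and C3 stand apart from the other 8 in both groups, with no library under 21.0 CPM per kb, against at most 3.54 in any library for the other 8.

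The 3 other genes whose mean-centred log2 levels over the 6 libraries lay nearest to those of C1S were LPL (lipoprotein lipase), HAVCR2 (the receptor TIM-3) and LINC02785, a long noncoding RNA, chosen from genes with a mean of at least 1 CPM, with root mean square differences of 0.053, 0.057 and 0.065 on the log2 scale. Their log2 fold changes were -1.42 ± 0.05, -1.55 ± 0.08 and -1.71 ± 0.19. For CD55 they were ARF4, TCP1 and ANXA5, with differences of 0.0091, 0.013 and 0.016 and log2 fold changes of 0.26 ± 0.05, 0.24 ± 0.04 and 0.24 ± 0.05. With only 2 groups of 3 libraries, many genes share such a profile.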

How the data were processed

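For the 6 libraries the authors deposited raw counts, whole reads assigned to each gene, on hg38 per the submitters' processing notes. The sources used here name no aligner, counting program, annotation or strand setting, so reads of overlapping and antisense genes cannot be told apart. The 10 genes and the lists were chosen with earlier results of these data known, and the rule for named genes with them: all 10, the called genes of the wider list, its membrane regulators and anaphylatoxin receptors, and the nearest profiles. ITGB2, CFD, C5, C9, C4A, C4B, CD93, PTX3, C1QB and C1QC, the genes overlapping the 10 and the 4 ratios were added after values were seen.

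The quasi-likelihood test of edgeR (4.0.16, R 4.3.3, robust) was run on these counts, with TMM factors and filterByExpr (minimum count 10, minimum total 15), ruxolitinib over control, adjusted by Benjamini-Hochberg over all genes tested. The procedure was also tested on counts simulated from its own fitted model, which cannot show whether that model holds for these libraries. SE came from the coefficient and its F statistic, and 95% intervals from the same model. Replicates of a group differed beyond counting noise in all 6 pairs. Gene positions and lengths came from GENCODE 29 on GRCh38. Alternatives were DESeq2 1.42.0, other scalings and filters, the batch as a block, and leaving out libraries or batches. The batch numbers in the labels pair the libraries, while deviations of same-numbered libraries correlated at -0.03, -0.27 and -0.15. Of the wider list, 1 complement gene is not reported here and was left out of the list's counts.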

Additional observations from a re-analysis of the deposited data

How the results depend on the processing

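C1S, C2, C3 and C3AR1 stayed lower and CD55 stayed higher, each at an adjusted p under 0.05, in every alternative run: median-ratio factors, library totals alone, no filter, at least 1 CPM in 3 libraries, DESeq2, the batch as a replicate block, and without each library or batch. Of the 10 genes the replicate block changed the call of SERPING1 alone (4 lower and 1 higher in place of 5 and 1), and of the other complement genes named here that of ITGAX alone. Over all genes it left 1627 lower and 1288 higher, against 2267 and 1908. Without both libraries of batch 1 these were 1143 and 840. The count of the 10 genes higher, 1, was 1 to 2 when single libraries were left out and 2 without batch 2, where CFP passed. In the wider list the count lower, 4, was 3 to 5 over the alternatives (through the calls of ITGAX, CD93 and C5AR2), and 1 gene, ITGB2, was higher without batch 2 (adjusted p = 0.0237). The sign of 2 genes near 0 turned, never with a call. C1QA had 0.0074 with median-ratio factors, 0.0071 by DESeq2, 0.21 without batch 1, 0.069 without batch 2 and -0.30 to 0.20 without single libraries. CFB had -0.025 with library totals alone, -0.21 without both libraries of batch 1, and -0.12 to 0.26 without single libraries. The causes were not tested. The order of levels with ruxolitinib kept 5 of 10 places with the longest transcript as gene length and 6 to 10 without single libraries. C1QA, CFB and SERPING1 could not be tested at 1 CPM in 3 libraries. Counts of 21 or fewer per library limit these 3 genes.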
